A study of Mus musculus with 10 samples.

Results

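Known targets of the hypoxia-inducible factors (HIF) that are not enzymes of glycolysis were followed in mouse kidney, 10 genes in all: Pdk1, Bnip3, Bnip3l, Higd1a, Ndrg1, Ankrd37, Kdm3a, Adm, Vegfa and Hilpda. They were taken by gene name from a table of 55952 genes, in which all 10 had a row of their own. The table holds FPKM, a fragment count per gene that has been divided by gene length and by a depth value for each library. Kidneys of C57BL/6 mice, an inbred strain, had been collected after 30 days at 400 m (the control group, 5 libraries) or at 4200 m (the hypoxia group, 5 libraries). The labels give no genotype, agent, sex or age for either group and do not say whether each library came from its own mouse, so the tests measure the spread between libraries. Altitude and anything else that differed between the places of rearing cannot be told apart.

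When oxygen is plentiful, prolyl hydroxylases mark the HIF-α subunits for degradation. When oxygen is scarce, the subunits persist, pair with ARNT and bind a short DNA core near their target genes. Of the targets outside glycolysis, PDK1, BNIP3, BNIP3L and HIGD1A act at mitochondria, KDM3A acts on chromatin and NDRG1 responds to stress. ADM and VEGFA widen and build vessels, HILPDA guards lipid droplets, and ANKRD37 is an ankyrin repeat protein. In the kidney the proximal tubule uses much of the oxygen delivered, and the medulla works at low oxygen even at sea level.

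Of the 10 genes, Pdk1 and Bnip3 rose and Higd1a fell at 4200 m, and the other 7 did not pass the test (limma on log2(FPKM + 0.5), Benjamini-Hochberg adjusted p under 0.05 over 15264 tested genes). Pdk1 was 1.53 times and Bnip3 1.55 times its control mean, and Higd1a was at 0.477 times its control mean. Over all tested genes 11.5% were called, 3.66% higher and 7.79% lower, and with 10 genes the count of 3 describes these genes only. The median log2 fold change of the 10 genes was 0.23, against 0.01 over all tested genes. At an unadjusted p under 0.05 (limma) 5 of the 10 were higher and 1 lower, against 12.3% and 16.8% of all tested genes. These counts too describe the 10 genes only. Without hypoxia replicates 4 and 5, which stand apart as described below, the same counts of 2 higher and 1 lower were found, against 4.53% and 7.75% (12.3% in all) of 14724 tested genes, and the median was 0.16. The split of calls over all genes was 559 higher and 1189 lower, and 782 (5.12%) and 927 (6.07%) with limma voom on recovered reads, which differs in input, scaling and error model, and the counts for the 10 genes were 2 and 1 there too. Scaling alone gave 629 and 1132 (median of ratios) or 647 and 1089 (trimmed mean of M values).

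The promoters of the 3 genes that changed are shown because they let the 2 that rose be read beside the 1 that fell. Each stretch holds the 250 bases before the RefSeq start site (GRCm38.p6), written 5′ to 3′ on the strand of the gene, and capitals mark the HIF core letters ACGTG or GCGTG on either strand.
Pdk1 promoter, chr2:71872974-71873223, plus strand: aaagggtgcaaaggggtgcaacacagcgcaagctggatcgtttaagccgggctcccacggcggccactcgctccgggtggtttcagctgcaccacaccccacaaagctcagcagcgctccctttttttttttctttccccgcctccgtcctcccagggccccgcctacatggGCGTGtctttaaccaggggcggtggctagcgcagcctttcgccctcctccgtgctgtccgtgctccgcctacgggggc
Bnip3 promoter, chr7:138909507-138909756, minus strand: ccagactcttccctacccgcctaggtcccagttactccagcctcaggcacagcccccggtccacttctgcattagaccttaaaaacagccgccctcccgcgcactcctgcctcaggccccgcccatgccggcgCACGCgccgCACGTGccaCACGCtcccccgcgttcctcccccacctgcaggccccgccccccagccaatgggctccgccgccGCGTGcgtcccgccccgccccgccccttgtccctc
Higd1a promoter, chr9:121857797-121858046, minus strand: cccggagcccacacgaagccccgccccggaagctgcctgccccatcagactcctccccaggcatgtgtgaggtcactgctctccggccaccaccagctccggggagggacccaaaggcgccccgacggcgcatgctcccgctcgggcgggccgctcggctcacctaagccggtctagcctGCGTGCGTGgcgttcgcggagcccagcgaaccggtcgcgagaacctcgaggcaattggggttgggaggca
Pdk1 held 1 match, GCGTG at -78 from the start site. Bnip3 held 5, of which 2 are the same CACGTG at -108 read on both strands, a word that is also the E-box core bound by clock and other basic helix-loop-helix factors. Higd1a held 2, which overlap at -70 and -66. The RefSeq start site used for Higd1a is 566 bases from the start of the deposited gene, so this stretch lies inside that gene. The distance was 0 for Pdk1 and 13 bases for Bnip3. At least 1 core was found in the first listed window of 6 of the 8 genes with an entry, and in 8 of all 13 windows listed for them. Among the 32851 windows of that length in the table the share was 38.6%. These 3 windows had 64.0, 72.4 and 71.2% G and C, against a median of 52.4% over all windows. Bnip3l and Ndrg1 have no entry in the table. The first windows of Vegfa and Hilpda held no core, which says only that the letters are not in these 250 bases, and a second listed window held 2 for Vegfa and 3 for Hilpda. The later listed windows of Pdk1 and Kdm3a held 0. A match is a description of letters and not evidence of binding.

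The depth behind these values was even. Whole reads could be recovered from the table, 16561672 to 17845464 per library, and 3 reads for a gene of 1 kb correspond to 0.165 to 0.183 FPKM. Hypoxia replicates 4 and 5 stood apart from the rest of their group: their median correlation with it across genes was 0.959 and 0.853, against 0.968 to 0.971 in hypoxia replicates 1 to 3 and 0.979 to 0.982 among controls. In hypoxia replicate 4 the summed FPKM of 8 adrenal cortex markers was 1130, against 1.72 to 3.32 in the controls and hypoxia replicates 1 to 3. In hypoxia replicate 5 the 8 B cell and lymphoid markers summed to 365, against 1.28 to 3.08 in the other 9 libraries, and the 5 red blood cell markers to 6560, against at most 665.5. The protocol text speaks of retinas, but 3 of 10 retina markers were at 0 in all libraries and their sum was at most 5.62 FPKM, whereas proximal tubule markers were abundant. Their 12 genes summed to 26070 to 32152 FPKM in controls and 11436 to 25584 FPKM in hypoxia, without overlap. Most of that sum was Kap, a kidney androgen-regulated gene, and the other 11 markers summed to 2830 to 3937 FPKM in controls, 2755 to 3196 FPKM in hypoxia replicates 1 to 4 and 1584 FPKM in hypoxia replicate 5. One of the 11, Slc5a2, was at 92.4 to 157 FPKM in controls and 32.8 to 89.8 FPKM in hypoxia. Another, Lrp2, overlapped between groups, at 133 to 159 FPKM in controls and 77.4 to 188 FPKM in hypoxia. Its lowest value was that of hypoxia replicate 5. The part of proximal tubule RNA in the values of the 10 genes below was not tested.

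Pdk1 (ENSMUSG00000006494, chromosome 2 from 71873224 to 71903858, GRCm38) encodes a kinase that switches off the pyruvate dehydrogenase complex and so keeps pyruvate out of the citric acid cycle. It was at 6.22, 6.50, 6.37, 7.32 and 5.95 FPKM in control replicates 1 to 5 and at 9.88, 10.2, 9.04, 9.71 and 10.8 FPKM in hypoxia replicates 1 to 5. All 5 hypoxia libraries lay above the highest control, as they did for 5.68% of tested genes. The mean rose from 6.47 ± 0.517 to 9.92 ± 0.642 FPKM (SD, n = 5 each), or by 0.58 on the log2 scale (limma, SE 0.0707, adjusted p = 0.00140), and was 9.69 ± 0.583 FPKM in hypoxia replicates 1 to 3 alone.

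In controls Pdk1 had the lowest level of the 4 kinase genes, and the 4 did not move together. Pdk2 was the most abundant with a mean of 85.7 ± 4.20 FPKM at 400 m and 86.8 ± 19.8 FPKM at 4200 m (SD, n = 5 each, limma adjusted p = 0.951). Pdk3, an X-linked kinase of the same family, fell from 27.3 ± 1.52 to 17.0 ± 2.72 FPKM (-0.68 on the log2 scale, adjusted p = 0.00400 with limma). Its groups did not overlap, as was so with hypoxia lower for 8.54% of tested genes. Pdk4, the kinase known for induction by fasting, ranged from 15.6 to 33.7 FPKM at 400 m and from 7.96 to 23.1 FPKM at 4200 m, with overlapping groups (limma adjusted p = 0.111). As a share of the summed FPKM of the 4 kinases, Pdk1 was 4.01 to 5.55% in controls and 6.71 to 10.5% in hypoxia, the highest share being that of hypoxia replicate 5, whose sum was the lowest at 102.6 FPKM. Across Pdk1 and 13 other genes of the complex, its kinases, phosphatases and pyruvate carriers, 2 rose, 2 fell and 10 passed in neither direction. Over all tested genes 3.66% rose and 7.79% fell. The median log2 fold change of the list was -0.25. At an unadjusted p under 0.05 there were 2 higher and 7 lower, against 12.3% and 16.8% of all tested genes. Without hypoxia replicates 4 and 5 the counts of calls were 1 and 5, against 4.53% and 7.75% of all tested genes. Pdp1, the phosphatase that reverses the kinases, was the other gene that rose, from 1.88 ± 0.302 to 2.57 ± 0.150 FPKM (limma adjusted p = 0.0405), and Pdhx, a structural component of the complex, fell from 11.5 ± 0.639 to 8.97 ± 1.08 FPKM (adjusted p = 0.0297). When each library was left out in turn, the call of Pdp1 was lost 7 times of 10 and that of Pdhx 5 times, the adjusted p reaching 0.0943 and 0.0790, both without control replicate 1, and that of Pdp1 also without hypoxia replicates 4 and 5 (adjusted p = 0.0973).

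**Figure D1:**
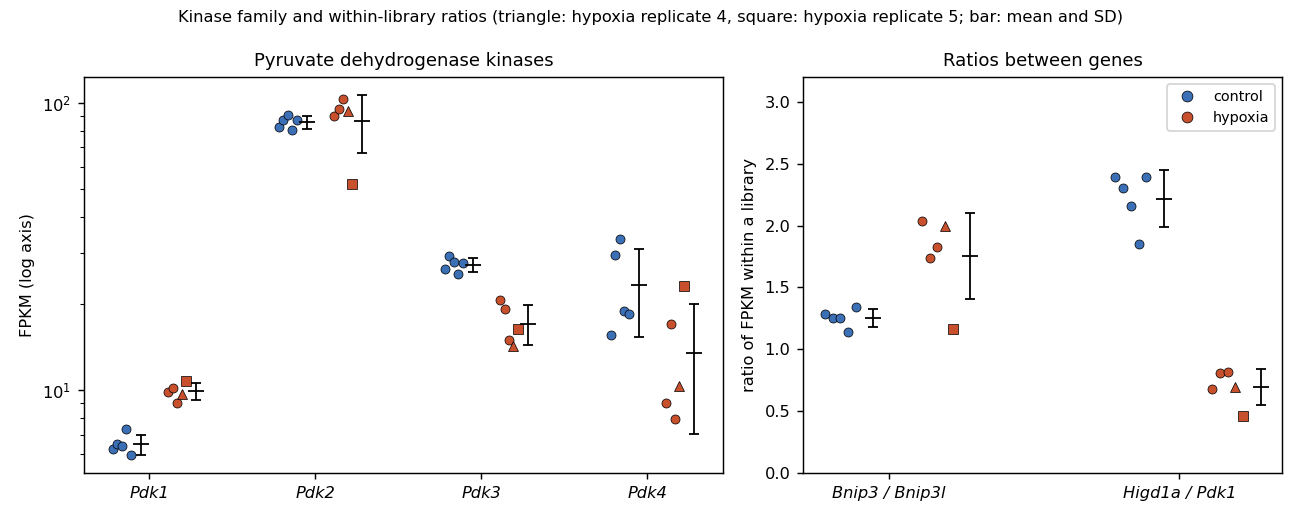
Left, FPKM (log axis) of Pdk1 to Pdk4 in each of 5 control (blue) and 5 hypoxia (red) libraries; right, the ratio of Bnip3 to Bnip3l and of Higd1a to Pdk1 FPKM within each library, with mean and SD as bars, a triangle for hypoxia replicate 4 and a square for hypoxia replicate 5. Pdk1 is higher and Pdk3 lower in all 5 hypoxia libraries, and the Higd1a to Pdk1 ratio goes from 1.85 to 2.39 in controls to 0.456 to 0.818 in hypoxia.

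Bnip3 and Bnip3l encode related receptors on the outer mitochondrial membrane that tether mitochondria to the autophagosome for mitophagy. Bnip3 (ENSMUSG00000078566, chromosome 7 from 138890836 to 138909519) was at 40.1, 40.8, 41.1, 34.8 and 38.7 FPKM in control replicates 1 to 5 and at 68.7, 57.8, 62.0, 66.0 and 48.0 FPKM in hypoxia replicates 1 to 5. The groups did not overlap, as was so with hypoxia higher for 5.68% of tested genes. Hypoxia replicate 5 was the lowest of its group. The mean rose from 39.1 ± 2.57 to 60.5 ± 8.11 FPKM (SD, n = 5 each), or by 0.61 on the log2 scale (limma, SE 0.102, adjusted p = 0.00603), and by 0.68 without hypoxia replicates 4 and 5 (adjusted p = 0.00188). An antisense gene, Gm45507, shares 22.3% of the exon bases of Bnip3 and was listed at 0 in every library, while the strand setting of the counting is not given in the sources used here.

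Bnip3l (ENSMUSG00000022051, chromosome 14 from 66985239 to 67008877) was at 31.2, 32.6, 32.8, 30.5 and 28.8 FPKM in controls and at 33.8, 33.3, 33.9, 33.0 and 41.2 FPKM in hypoxia. Its groups did not overlap either, but by a small margin, 32.8 FPKM in the highest control against 33.0 FPKM in the lowest hypoxia library, replicate 4. The log2 fold change of 0.16 did not pass (95% interval -0.01 to 0.33, limma adjusted p = 0.192). The highest library, hypoxia replicate 5, was also the one with the most red blood cell marker RNA, Alas2 being at 104 FPKM there against at most 10.9 FPKM elsewhere. The part of those cells in the Bnip3l value was not tested. The difference was 0.11 on the log2 scale in hypoxia replicates 1 to 3. A transcribed pseudogene, Bnip3l-ps, had means of 6.05 ± 0.820 FPKM at 400 m and 7.80 ± 1.64 FPKM at 4200 m (SD, n = 5 each), so reads of the 2 copies may have been shared in the counting. Within a library Bnip3 exceeded Bnip3l by a ratio of 1.14 to 1.34 in controls and 1.73 to 2.04 in hypoxia replicates 1 to 4. In hypoxia replicate 5 the ratio was 1.17, inside the control range.

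Of the 20 mitophagy and autophagosome genes tested, Bnip3 included, 2 rose and 3 fell, against 3.66% and 7.79% of all tested genes. The median log2 fold change was -0.13. At an unadjusted p under 0.05 there were 2 higher and 8 lower, against 12.3% and 16.8% of all tested genes. Without hypoxia replicates 4 and 5 the median was 0.03, with the same counts of calls, against 4.53% and 7.75% of all tested genes. Optn, an autophagy receptor for ubiquitin-marked mitochondria, rose from 4.46 ± 0.238 to 6.59 ± 1.12 FPKM (SD, n = 5 each, limma adjusted p = 0.0117). Bcl2l1, the survival factor BCL-XL that binds BNIP3-type proteins, fell from 25.5 ± 1.33 to 19.2 ± 2.36 FPKM (adjusted p = 0.0152). Ulk1, the kinase that starts autophagy, fell from 14.4 ± 0.814 to 11.3 ± 0.997 FPKM (adjusted p = 0.0168), and Gabarapl2, an adaptor of the autophagosome membrane that was named after its values were seen, had a log2 fold change of -0.29 (adjusted p = 0.0275). Fundc1, another hypoxia-linked mitophagy receptor named after its values were seen, had one of 0.17 (adjusted p = 0.202).

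Higd1a went the other way. HIGD1A is a small protein of the inner mitochondrial membrane that stabilises respiratory supercomplexes and cytochrome c oxidase, and its gene is a known HIF-1 target. Higd1a (ENSMUSG00000038412, chromosome 9 from 121848563 to 121858362) was at 14.9, 14.9, 13.7, 13.5 and 14.2 FPKM in control replicates 1 to 5 and at 6.74, 8.20, 7.39, 6.77 and 4.93 FPKM in hypoxia replicates 1 to 5. The highest hypoxia library lay far below the lowest control, and 8.54% of tested genes were separated in the same direction. The mean fell from 14.3 ± 0.648 to 6.80 ± 1.21 FPKM (SD, n = 5 each), which is -1.03 on the log2 scale (95% interval -1.28 to -0.79, limma adjusted p = 0.000772). It was -0.90 without hypoxia replicates 4 and 5 (adjusted p = 0.000329), with a mean of 7.44 ± 0.734 FPKM. Gm47112, an antisense gene, covers 22.5% of the exon bases of Higd1a and held a mean of 2.30 reads, against 550.7 for Higd1a.

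The order of the levels changed with it. In controls Higd1a exceeded Pdk1 in 5 of 5 libraries, by a ratio of 2.22 ± 0.229, and in hypoxia it was below Pdk1 in 5 of 5, at 0.692 ± 0.146 (SD, n = 5 each). Of the other 3 genes of the HIG1 domain family none passed the test with limma, or with voom on recovered reads, and 1 had an unadjusted p under 0.05, a threshold that 12.3% of all tested genes passed as higher and 16.8% as lower. Higd2a, a relative that acts in the assembly of cytochrome c oxidase, averaged 161 ± 8.18 FPKM at 400 m and 117 ± 26.2 FPKM at 4200 m (SD, n = 5 each, -0.49 on the log2 scale, limma adjusted p = 0.0652). It passed when hypoxia replicate 2 (adjusted p = 0.0289) or hypoxia replicate 5 (adjusted p = 0.0221) was left out. Its ratio to Higd1a was 10.9 to 11.8 in controls and 15.6 to 18.2 in hypoxia. The low Higd1c had means of 1.05 ± 0.645 and 1.5 ± 0.541 FPKM (adjusted p = 0.331).

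**Figure D2:**
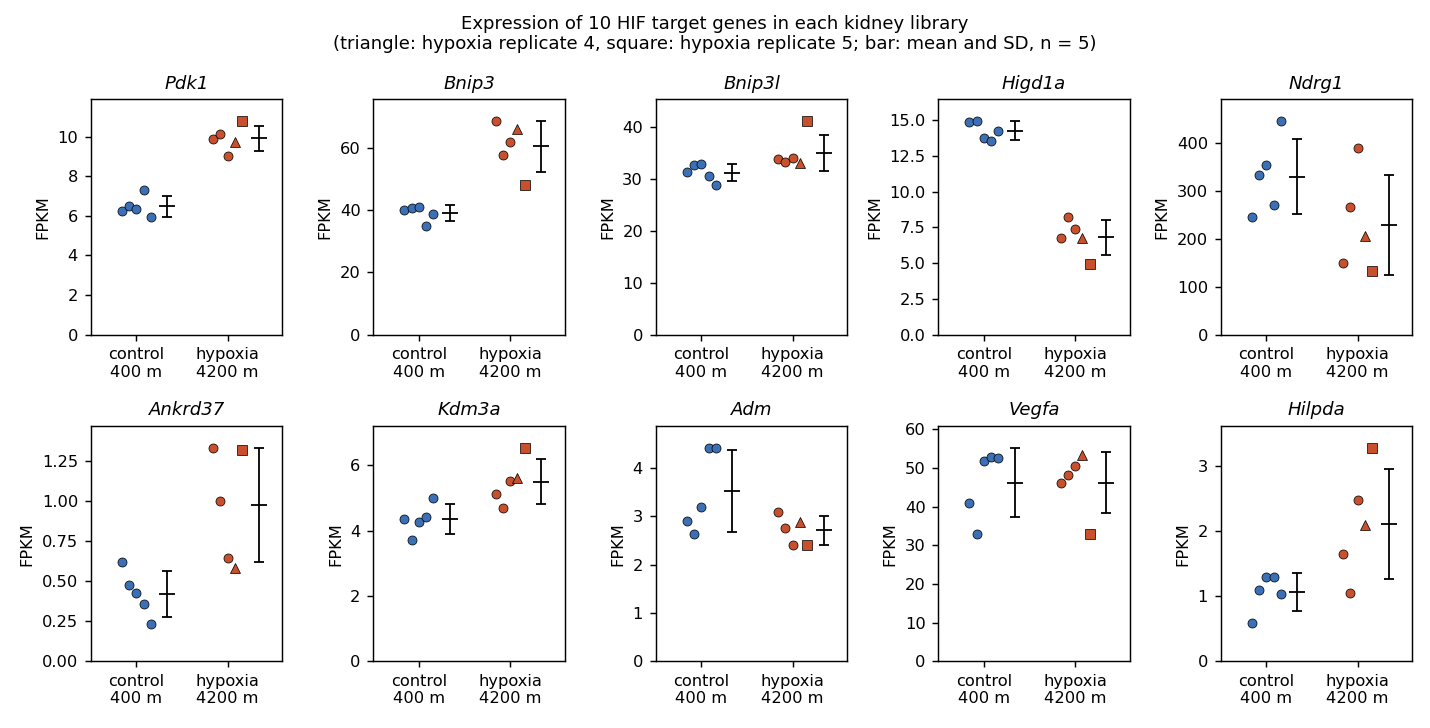
FPKM of each of the 10 genes in the 5 control (blue) and 5 hypoxia (red) libraries, with mean and SD as bars, a triangle for hypoxia replicate 4 and a square for hypoxia replicate 5. Pdk1, Bnip3, Bnip3l and Higd1a show no overlap between groups, as do 14.2% of all tested genes in either direction. Hypoxia replicate 5 is an end point of its group in 9 of the 10 panels.

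Ndrg1 was the most abundant of the 10 genes and varied widely between libraries. It encodes a stress-responsive protein of the N-myc downstream-regulated family and is a common read-out of hypoxia in cultured cells. Ndrg1 (ENSMUSG00000005125, chromosome 15 from 66929318 to 66969640) was at 246, 332, 353, 270.5 and 445 FPKM in control replicates 1 to 5 and at 149.6, 266, 389, 205 and 133 FPKM in hypoxia replicates 1 to 5. Hypoxia replicates 2 and 3 lay within the control range and the other 3 lay below it. The means were 329 ± 78.2 and 229 ± 104 FPKM (SD, n = 5 each), and the difference of -0.61 on the log2 scale did not pass (95% interval -1.24 to 0.02, limma adjusted p = 0.187). Without hypoxia replicates 4 and 5 it was -0.37, so these 2 libraries moved the value by more than 1.5 times. In the rest of the family, Ndrg2 averaged 26.5 ± 3.42 FPKM at 400 m and 29.1 ± 5.12 FPKM at 4200 m (adjusted p = 0.565) and Ndrg3 at 10.4 ± 0.699 and 10.2 ± 0.772 FPKM (adjusted p = 0.760).

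Ankrd37 and Kdm3a were higher on average without passing the threshold. Ankrd37 (ENSMUSG00000050914, chromosome 8 from 45996902 to 46005707) encodes an ankyrin repeat protein whose gene is a sensitive HIF-1 target in cultured cells. It was at 0.621, 0.475, 0.425, 0.358 and 0.235 FPKM in controls and at 1.33, 1.00, 0.644, 0.586 and 1.32 FPKM in hypoxia, which rest on 6 to 37 reads. One hypoxia library, replicate 4, fell below the highest control. The log2 fold change was 0.66 (95% interval 0.21 to 1.11, limma adjusted p = 0.0619), and on the linear scale the mean was 2.31 times that of controls, since the added 0.5 FPKM dampens the change of so low a gene. Ankrd37 overlaps Ufsp2 in 3.70% and Lrp2bp in 22.7% of its exon bases on the opposite strand, and Ufsp2 held a mean of 709.6 reads, so its few reads are uncertain. The call was made with eBayes without trend and robust settings (adjusted p = 0.0437).

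Kdm3a (ENSMUSG00000053470, chromosome 6 from 71588972 to 71632990) encodes an oxygen-dependent demethylase that removes methyl groups from lysine 9 of histone H3. Its values were 4.36, 3.72, 4.28, 4.42 and 4.99 FPKM in controls and 5.13, 4.70, 5.50, 5.61 and 6.54 FPKM in hypoxia. All but hypoxia replicate 2 exceeded every control. The log2 fold change was 0.30 (95% interval 0.09 to 0.51, limma adjusted p = 0.0672), the adjusted p was 0.0415 without hypoxia replicate 2, and the value was 0.21 without hypoxia replicates 4 and 5 (adjusted p = 0.172). Of 15 tested Jumonji demethylases, Kdm3a included, 0 rose and 1 fell (limma), with a median of 0.14 that was 0.03 without hypoxia replicates 4 and 5. At an unadjusted p under 0.05 there were 3 higher and 1 lower, against 12.3% and 16.8% of all tested genes, and with voom 0 passed. That gene was Kdm5c, an X-linked demethylase of lysine 4, which fell from 11.5 ± 0.430 to 9.22 ± 1.22 FPKM (adjusted p = 0.0385). The call was lost in 8 of 10 leave-one-out fits (largest adjusted p 0.0959, without control replicate 1) and on recovered reads (limma voom, adjusted p = 0.121).

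Neither of the ligands that act on vessels passed the test. Vegfa, the main growth factor for endothelium (ENSMUSG00000023951, chromosome 17 from 46016993 to 46032369), was at 40.9, 32.8, 51.8, 52.9 and 52.6 FPKM in controls and at 46.2, 48.2, 50.4, 53.2 and 32.9 FPKM in hypoxia. The 2 ranges covered each other almost entirely, from 32.8 to 52.9 and from 32.9 to 53.2 FPKM. With a log2 interval of -0.36 to 0.37 for the difference, changes of up to about 1.29 times in mean level are within the interval (limma adjusted p = 0.989). Podocytes are a main source of Vegfa in the kidney. Their 6 markers summed to 80.5 to 99.9 FPKM in controls, 116 to 152 FPKM in hypoxia replicates 1 to 4 and 74.3 FPKM in hypoxia replicate 5, which was also the hypoxia library with the least Vegfa. The part of podocyte RNA in the Vegfa values was not tested, and in bulk tissue fewer cells of a type and less RNA per cell cannot be told apart. Of 9 tested VEGF ligands and receptors 0 passed with limma or with voom (median log2 fold change 0.0040, and 0.04 without hypoxia replicates 4 and 5), and 1 had an unadjusted p under 0.05. Among the 9 were Vegfb, a ligand with means of 30.7 ± 2.22 and 34.5 ± 8.33 FPKM (adjusted p = 0.631), and Kdr, the main VEGF receptor, with 11.1 ± 1.24 and 11.3 ± 2.13 FPKM (adjusted p = 0.961). Vegfb was lowest in hypoxia replicate 5, at 20.8 FPKM, and passed when that library alone was left out (0.30 on the log2 scale, limma adjusted p = 0.0287).

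Adm (ENSMUSG00000030790, chromosome 7 from 110627661 to 110629820) encodes adrenomedullin, a peptide that widens vessels. It was at 2.91, 2.63, 3.2, 4.42 and 4.42 FPKM in controls and at 3.10, 2.75, 2.41, 2.89 and 2.41 FPKM in hypoxia. The hypoxia values fell inside or just below the lower part of the control range. The log2 fold change of -0.30 did not pass (95% interval -0.61 to 0.01, limma adjusted p = 0.184). Its relative Adm2, which encodes intermedin and acts on the same receptors, rose from 1.55 ± 0.365 to 2.84 ± 0.755 FPKM (SD, n = 5 each) and was the 1 call among 8 tested genes of this ligand and receptor group (limma, 0.69 on the log2 scale, adjusted p = 0.0438). Over all tested genes 3.66% were called higher and 7.79% lower. The call of Adm2 was lost in 9 of 10 leave-one-out fits, where the adjusted p reached 0.10 (without control replicate 3), whereas without hypoxia replicates 4 and 5 the adjusted p was 0.00929. Hypoxia replicate 5, at 1.56 FPKM, was the one hypoxia library within the control range of Adm2.

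Hilpda (ENSMUSG00000043421, chromosome 6 from 29272488 to 29275446) encodes a lipid droplet protein that inhibits the triglyceride lipase ATGL. It was at 0.596, 1.1, 1.30, 1.30 and 1.04 FPKM in controls and at 1.66, 1.05, 2.49, 2.09 and 3.28 FPKM in hypoxia, on 11 to 66 reads. Only hypoxia replicate 2 lay within the control range. The log2 fold change was 0.70 (95% interval 0.18 to 1.21, limma adjusted p = 0.0793), with adjusted p = 0.0233 without hypoxia replicate 2, and it was 0.48 without hypoxia replicates 4 and 5 (adjusted p = 0.212). Fat markers summed to 676 FPKM in hypoxia replicate 4 and to 69.8 to 192 FPKM in the other libraries, and their part in the Hilpda values was not tested. Of 19 tested lipid droplet genes 0 rose and 2 fell (limma), with a median of -0.34. At an unadjusted p under 0.05 there were 1 higher and 11 lower, against 12.3% and 16.8% of all tested genes. With voom 0 rose and 1 fell, and without hypoxia replicates 4 and 5 the counts were 0 and 4. Cideb, which promotes droplet growth and lipoprotein assembly, fell from 27.0 ± 4.61 to 14.2 ± 4.88 FPKM (SD, n = 5 each, adjusted p = 0.0242), a call lost in 5 of 10 leave-one-out fits (largest adjusted p 0.0657, without control replicate 2). Its relative Cidea fell as well (adjusted p = 0.0392), but at 0.534 to 16.7 FPKM in controls and 0.0987 to 2.58 FPKM in hypoxia its groups overlapped, and the call was lost in 8 of those fits (largest adjusted p 0.0985, without control replicate 1).

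**Figure D3:**
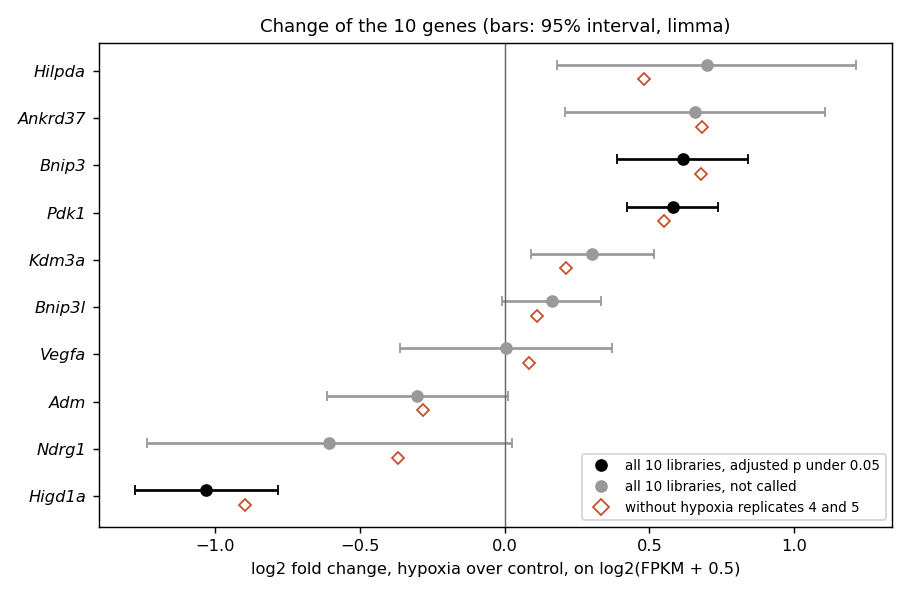
Log2 fold change of the 10 genes on log2(FPKM + 0.5), hypoxia over control, with 95% intervals from all 10 libraries (black where the adjusted p is under 0.05, grey otherwise) and the value without hypoxia replicates 4 and 5 (open diamonds). Higd1a at -1.03 lies lowest, and Bnip3 at 0.61 and Pdk1 at 0.58 are the 2 called higher, below the uncalled Hilpda at 0.70 and Ankrd37 at 0.66, whose intervals are wider.

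By level, the 10 genes ran in controls from Ndrg1 through Vegfa, Bnip3, Bnip3l, Higd1a, Pdk1, Kdm3a, Adm and Hilpda to Ankrd37. Neighbours whose ranges overlapped were Vegfa and Bnip3, Kdm3a and Adm, and Hilpda and Ankrd37. In hypoxia Bnip3 stood above Vegfa in 5 of 5 libraries, as against 1 of 5 in controls, though their ranges overlapped. Pdk1 stood above Higd1a, and the rest of the order was as in controls. Other neighbours with overlapping ranges in hypoxia were Vegfa and Bnip3l, Higd1a and Kdm3a, and Adm, Hilpda and Ankrd37, whereas Kdm3a and Adm no longer overlapped. The library that departed most from its group was hypoxia replicate 5. It was the highest or the lowest of the 5 hypoxia libraries in 9 of the 10 genes, highest for Pdk1, Bnip3l, Kdm3a and Hilpda and lowest for Bnip3, Higd1a, Ndrg1, Adm and Vegfa, while the other 4 hypoxia libraries were at an end in 2 or 3 genes each. The foreign markers of this library were given above, and their part in its values was not tested.

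**Figure D4:**
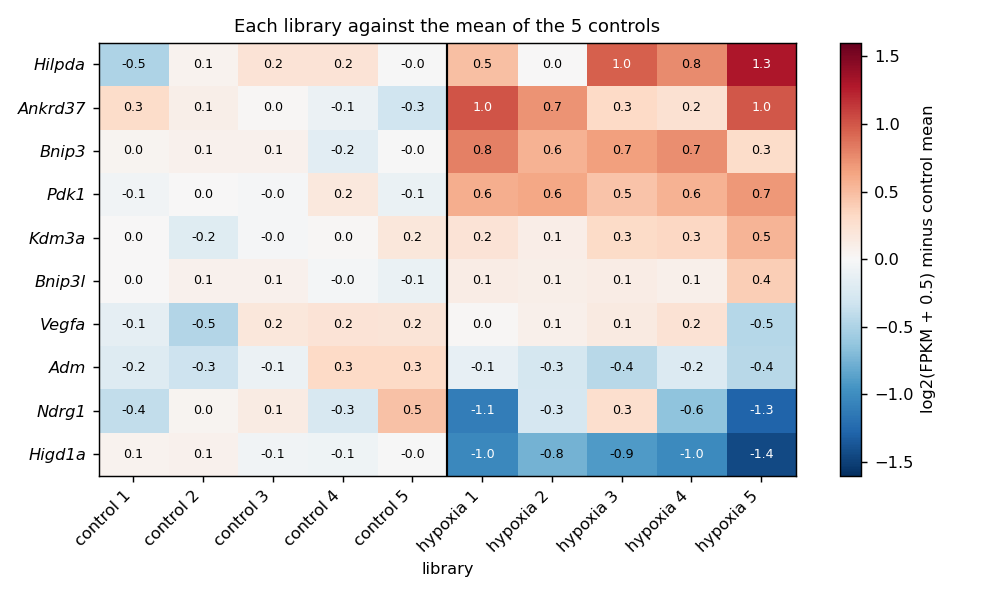
Log2(FPKM + 0.5) of each gene in each library minus the mean of the 5 controls, with the value printed in each cell (red higher, blue lower). Pdk1, Bnip3, Bnip3l, Ankrd37, Kdm3a and Hilpda are above the control mean in all 5 hypoxia libraries, Hilpda by only 0.006 in hypoxia replicate 2. Higd1a and Adm are below it in all 5. Ndrg1 ranges from -1.28 in hypoxia replicate 5 to 0.27 in hypoxia replicate 3, and Vegfa also lies on both sides.

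The regulators themselves and other target groups gave the setting. Hif1a, the oxygen-regulated subunit, was at 17.1, 19.2, 15.8, 19.2 and 17.6 FPKM in controls and 23.6, 19.9, 19.3, 18.3 and 24.5 FPKM in hypoxia, and Epas1, the gene of HIF-2α, differed by 0.10 on the log2 scale (95% interval -0.09 to 0.29). Of 9 tested HIF subunits and oxygen sensors 0 passed with limma or with voom, and at an unadjusted p under 0.05 there were 1 higher and 2 lower, near the 12.3% and 16.8% of all tested genes. Egln1, the main HIF prolyl hydroxylase, had means of 28.0 ± 1.47 and 24.4 ± 2.80 FPKM (SD, n = 5 each, adjusted p = 0.160). A list of 34 other tested targets outside glycolysis held 1 higher and 5 lower genes with limma and 2 higher and 4 lower with voom, with a median of 0.04. Over all tested genes 3.66% were higher and 7.79% lower with limma, and 5.12% and 6.07% with voom. At an unadjusted p under 0.05 the list held 4 higher and 7 lower, against 12.3% and 16.8%. With limma Car9, a carbonic anhydrase, was the 1 gene called higher. Of the 5 called lower, 4 (P4ha1, P4ha2, Plod1 and Plod2) encode hydroxylases of collagen. The other, Fam162a, a mitochondrial protein gene named after its values were seen, was near the threshold (limma adjusted p = 0.0496). Plod1 fell from 7.45 ± 0.246 to 5.32 ± 0.505 FPKM (limma adjusted p = 0.00502) and Plod2 from 13.6 ± 1.16 to 8.26 ± 1.53 FPKM (adjusted p = 0.00695). Among 17 tested glycolytic targets 0 rose and 4 fell with limma and with voom, with a median of -0.23, and at an unadjusted p under 0.05 there were 0 higher and 7 lower, against 12.3% and 16.8% of all tested genes. Pgam1, a phosphoglycerate mutase, fell from 139.5 ± 13.4 to 87.2 ± 14.0 FPKM (adjusted p = 0.010).

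Genes whose levels followed the 3 called genes most closely over the 10 libraries were sought among 9950 protein-coding genes. For Higd1a these were Fkbp4, a co-chaperone of HSP90 (Pearson r = 0.996), Bend5 (0.992) and Plod1 (0.990), and their r after subtracting the group means was 0.964, 0.914 and 0.927. For Bnip3 they were Cyp2c23, an arachidonic acid epoxygenase (0.981), Rnf13 (0.979) and Herc3 (0.974), with 0.904, 0.900 and 0.850 after the group means. For Pdk1 they included Akr1c13 (0.976) and Marveld1 (0.973), with 0.657 and 0.868. The points share libraries and group differences, so the values are descriptions without a test. Hypoxia replicate 5, with its foreign markers, weighs on the values after the group means. Higd1a was at 4.93 FPKM there and 6.74 to 8.20 FPKM in the other hypoxia libraries, and Plod1 at 4.48 and 5.31 to 5.81 FPKM. The r without that library was not computed.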

How the data were processed

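RNA sequencing of 10 kidney libraries (5 control, 5 hypoxia, grouped by the treatment label, numbered by title) was deposited as 1 table of FPKM per gene by the authors. The deposited gene length in bases, an other unit, served to recover reads. HISAT2 2.0.5 and the build hg38 are listed, per the submitters' processing notes, but gene identifiers are those of mouse: 55227 matched a GRCm38 annotation, 99.4% with the same ends. No label or header names the counting tool or its strand setting. Low values, multiplied by length, were whole multiples of the worth of 1 read in 100% of cases (tolerance 0.05).

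No scaling was added to the FPKM. limma 3.58.1 (R 4.3.3) tested the 15264 genes that averaged 0.5 FPKM or more, as log2(FPKM + 0.5), in a model with group alone. Its eBayes step used trend and robust, p-values were two-sided with Benjamini-Hochberg adjustment over those genes (threshold 0.05), and intervals are 95%. The members, lists and tests were chosen with earlier results of these data known. Lists are described by counts and medians. Named genes are all members, Hif1a and Epas1, from each list up to 3 other called genes by smallest p (or the 2 most abundant where none passed) and, for each called member, the 3 protein-coding genes of at least 2 FPKM with the highest r; a few of these are not reported here. Others are said to have been named after their values were seen, or were tabulated beside their family. Promoters came from the RefSeq table of GRCm38.p6. The test was tried on simulated libraries, but the outcome is not reported here and no result above rests on it. Alternatives covered scaling, pseudocount, filters, error model, rank-sum, voom on recovered reads, a replicate block and left-out libraries. No 2 libraries were alike within sampling noise. Figures used matplotlib 3.10.9 in Python 3.11.15.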

Additional observations from a re-analysis of the deposited data

Results flagged for a closer look

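Among 20 groups of 5 libraries (10 genes in 2 groups), 1 held a library far from the rest: Bnip3l in hypoxia replicate 5, at 41.2 FPKM against 33.9 FPKM in the next library, a gap of 0.882 of the group's range. Chance marks about 1 in 20 such groups.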

How the results depend on the processing

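Pdk1, Bnip3 and Higd1a kept their direction in every alternative run and their call in all but the exact rank-sum test, where their adjusted p was 0.0558. It passed 0 of the genes, hence 0 higher and 0 lower among the 10, while 3968 had an unadjusted p under 0.05 (limma 4451). Its smallest p was 0.00794, the lowest that 5 against 5 libraries can give. All genes without overlap between groups, Bnip3l included, share that p and the adjusted p of 0.0558, so this test could call none of them. Leaving out 1 library gave 2 to 4 genes higher and 1 to 1 lower among the 10, with 4 (Kdm3a and Hilpda added) without hypoxia replicate 2. Over all genes the calls ranged from 824 (without control replicate 1) to 2724 (without hypoxia replicate 5), with 221 to 1094 higher and 603 to 1630 lower. They were also fewer by over 1.5 times without control replicates 2 (864), 3 (947) or 5 (1016) or hypoxia replicate 4 (1053). With no filter on low values 966 passed, 263 higher and 703 lower, and the calls of Pdhx, Pdp1, Kdm5c, Adm2, Cideb and Cidea were lost. The replicate block gave 999 calls, 265 higher and 734 lower, and 3 genes higher among the 10, Kdm3a being added at adjusted p = 0.0487, and Pdhx, Pdp1, Ulk1, Kdm5c and Cidea were no longer called. The numbers were not taken as pairs: deviations of same-numbered libraries correlated at -0.0771 to 0.0861, and 3 of 10 libraries correlated best with their own number. Values near 0 changed sign: Ndrg3 to 0.032 with voom and 0.022 without hypoxia replicates 4 and 5, and with 1 library left out Vegfa ran from -0.11 to 0.12, Kdr from -0.058 to 0.090 and Ndrg3 from -0.068 to 0.0044. The 2 planned count-model tests were not run, since the deposited values are FPKM. Ankrd37 and Hilpda rest on few reads, which limits what can be seen of them.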
